A study of Mus musculus with 35 samples.

Results

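The genes described here are 10 markers of injury to the kidney tubule, followed in the diabetic and control mouse kidneys of a study of 35 Affymetrix arrays. They were taken by name, and all probe sets annotated to them were used: Lcn2, Havcr1, Cd44, Clu, Vcam1, Sox9, Sox4, Hbegf and Tnfrsf12a had 29 probe sets, and Spp1 was not analysed here. These 9 genes stood among 18193 genes on the array with a probe set of their own. RNA came from whole kidneys of FVB/NJ mice. The diabetic mice belonged to the OVE26 line, a transgenic line that overproduces calmodulin in the insulin-producing beta cells and is diabetic from early life, and the genotype of the control mice is not given in the labels. Kidneys were taken at 2 months of age (6 labelled diabetic and 6 labelled control), at 4 months (7 and 4) and at 8 months (6 and 6). The labels do not say whether each array is a separate mouse, so the p-values measure the spread between arrays.

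A tubule cell that is damaged loses its transport proteins and raises the expression of a set of injury and repair genes. Lcn2 and Havcr1 encode proteins that appear in urine after tubular damage, Cd44 and Vcam1 encode adhesion molecules of the cell surface, Clu encodes a secreted chaperone, Sox9 and Sox4 encode transcription factors of development that return during repair, and Hbegf and Tnfrsf12a belong to growth factor and cytokine signalling. Several are not specific to the tubule: leukocytes carry CD44, activated endothelium carries VCAM1, and neutrophils store lipocalin. In whole-kidney RNA, fewer cells of a type and less RNA per cell cannot be told apart.

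The values are log2 signals, so a difference of 1 is a 2-fold change, and levels are compared only within an age because the mean of an array differed between ages (6.02 to 6.04 at 4 months against 6.54 at 8 months). The kidney genes Umod, Slc12a1, Lrp2 and Aqp2 were bright on every array, the lowest signal being 10.36 for Aqp2. A gene was represented by its brightest probe set and tested if the mean over all arrays reached 5.27, which left 13004 genes. Differences are diabetic minus control ± SE from a limma model over all arrays, and a gene is called when its Benjamini-Hochberg adjusted p over the tested genes is under 0.05. The arrays numbered 5 and 6 at 2 months, diabetic and control, were separated from the others by the leading principal component (scores of 9.32 to 36.6, against -14.1 to -7.18 for arrays 1 to 4), and so were control arrays 3 and 4 at 4 months (-18.0 and -18.6, against -6.24 to 13.1).

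Lcn2 and Havcr1, whose products appear in urine, had the highest differences of the set in the oldest mice. Lcn2 encodes lipocalin 2, a secreted protein that binds bacterial iron carriers. It had signals of 4.97, 5.29 and 6.03 (lowest, median and highest) in controls at 8 months and 8.07, 10.51 and 11.67 in diabetic kidneys. The lowest diabetic array stood above the highest control. The difference was 4.79 ± 0.35 (adjusted p = 2.55e-11). This SE comes from a spread shared by all ages, while the 8-month SD was 1.23 in diabetic and 0.45 in control kidneys. Over 9 alternative fits the adjusted p reached 0.00015, and Lcn2 was called in all 9. Of the 6 controls 3 lay under the testing limit, and with these held at the limit Lcn2 was at least 26.0-fold higher. The mean of the Lcn2 control arrays, 5.06, lay under the testing limit, so the gene was tested only because the diabetic arrays were high, and its count among called genes carries no weight of its own.

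At 4 months the Lcn2 signals were 4.79, 5.58, 4.66 and 4.84 in the controls, against 5.77, 6.44 and 6.67 (lowest, median and highest) in the 7 diabetic arrays. The groups did not overlap, but the difference of 1.43 ± 0.38 missed the threshold (adjusted p = 0.0552). The model shares a single spread per gene over all ages, and the Lcn2 SD was 1.23 in diabetic kidneys at 8 months against 0.29 in diabetic kidneys at 4 months. With the 4-month arrays fitted alone the same difference was called (SE 0.18, adjusted p = 0.0024). It was also called with array weights per group (adjusted p = 0.00182) and without control array 2 (1.63 ± 0.41, adjusted p = 0.046). These weights give each group a variance factor that all genes share, not a spread of its own for each gene. Without control arrays 3 and 4 the difference was 1.21 ± 0.49 (adjusted p = 0.891). At 2 months 4 of 6 diabetic arrays exceeded every control array, with signals of 4.54, 5.31 and 6.47 against 4.49, 4.70 and 5.08, and the difference was 0.58 ± 0.35 (adjusted p = 0.445).

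Havcr1 encodes kidney injury molecule 1, a receptor of the proximal tubule that lets injured cells take up dead neighbours. Its signals at 8 months were 6.50, 6.67 and 7.28 in controls and 8.21, 9.72 and 11.03 in diabetic kidneys. No array of the groups overlapped. Havcr1 was higher by 3.01 ± 0.28, or 8.04-fold (adjusted p = 2.64e-09). At 4 months 5 of 7 diabetic arrays lay above every control, from 5.72, 5.83, 6.13 and 6.45 in controls to 6.14, 6.93 and 7.23 in diabetic kidneys, a difference of 0.70 ± 0.30 (adjusted p = 0.362). At 2 months the groups lay over each other (6.73 to 7.25 in controls, 6.47 to 7.32 in diabetic kidneys), with a difference of -0.06 ± 0.28.

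**Figure D1:**
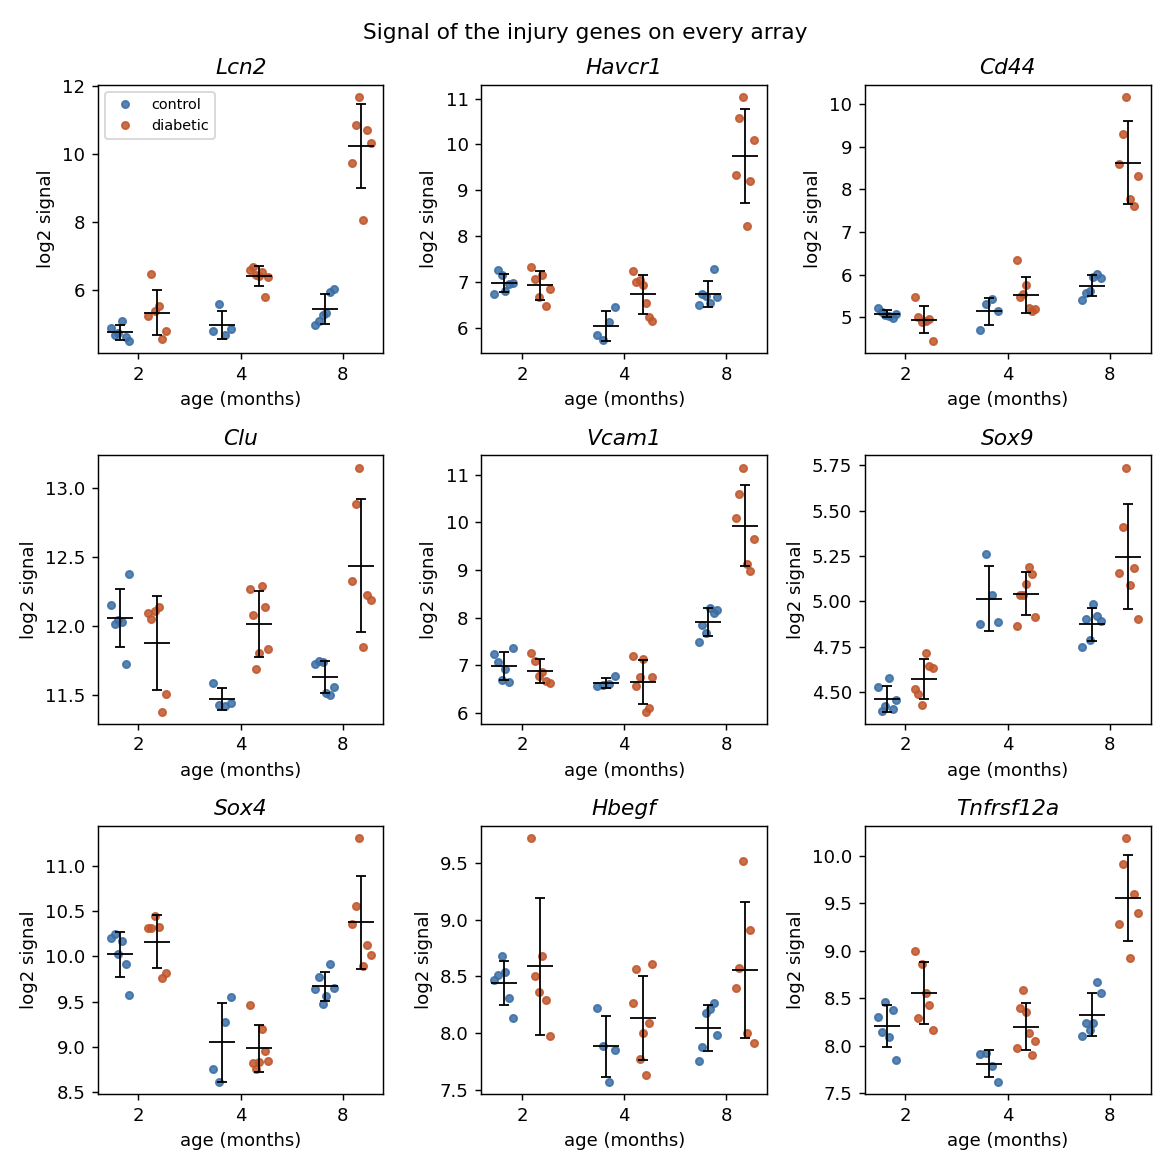
Log2 signal of the brightest probe set of each of the 9 genes (vertical axis, a scale of its own per gene) by age in months (horizontal axis), with 1 point per array, blue for control and orange for diabetic, and bars for the mean ± SD of the group. The orange points at 8 months lie above all blue points of that age for Lcn2, Havcr1, Cd44, Clu, Vcam1 and Tnfrsf12a, and they overlap for Sox9, Sox4 and Hbegf.

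The adhesion genes followed. Cd44, whose product binds hyaluronan and osteopontin, had signals of 5.40, 5.76 and 6.01 in 8-month controls and 7.61, 8.46 and 10.17 in diabetic kidneys. The groups were apart by more than 1 log2 unit, and the difference was 2.89 ± 0.26, or 7.42-fold (adjusted p = 2.32e-09). Vcam1, the docking molecule for integrins of leukocytes, had 7.49, 7.97 and 8.21 in controls and 8.98, 9.87 and 11.15 in diabetic kidneys. Here too each diabetic array was above all controls, and Vcam1 was higher by 2.01 ± 0.25, or 4.04-fold (adjusted p = 4.8e-07). Neither gene was called at the younger ages. The 2-month differences were -0.14 ± 0.26 for Cd44 and -0.11 ± 0.25 for Vcam1, and those at 4 months were 0.39 ± 0.29 and 0.02 ± 0.27. At 4 months the diabetic Vcam1 arrays spanned 6.03 to 7.21, on both sides of the controls at 6.56, 6.58, 6.61 and 6.79.

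Clu, the gene for clusterin, a secreted chaperone that binds misfolded proteins, was bright in every kidney and moved by less. At 8 months its signals were 11.50, 11.64 and 11.75 in controls and 11.85, 12.28 and 13.15 in diabetic kidneys. The groups did not overlap, and the difference was 0.81 ± 0.16, or 1.75-fold (adjusted p = 0.000358). At 4 months the controls had 11.59, 11.43, 11.42 and 11.44 and the diabetic arrays 11.69, 12.08 and 12.29. These groups did not overlap either, and Clu was higher by 0.55 ± 0.17, short of the threshold (adjusted p = 0.14). The 4-month arrays fitted alone gave the same difference with an adjusted p of 0.0234, and array weights per group gave 0.00704. Without control arrays 3 and 4 it was 0.51 ± 0.23 (adjusted p = 0.98). At 2 months the difference was -0.18 ± 0.16. The lowest diabetic arrays of that age, 11.38 and 11.51, were the arrays 5 and 6 that stood apart, and without arrays 5 and 6 of both groups the difference was 0.04 ± 0.17.

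Sox4 and Sox9 encode related DNA-binding proteins with a high-mobility-group box that act in nephron progenitors and in repairing tubules. Sox4 had signals of 9.47, 9.65 and 9.92 in 8-month controls and 9.89, 10.24 and 11.30 in diabetic kidneys. Of the 6 diabetic arrays 5 exceeded all controls, and Sox4 was higher by 0.70 ± 0.18 (adjusted p = 0.00539). The Sox4 differences at 2 and 4 months were 0.14 ± 0.18 and -0.07 ± 0.20. Sox9 was dim, with a mean of 4.86 over all arrays on its brightest probe set, and was not tested. Its 8-month signals were 4.75, 4.90 and 4.99 in controls and 4.90, 5.17 and 5.74 in diabetic kidneys, and 5 of the 6 diabetic arrays lay above all controls. With no limit on dim genes the Sox9 difference was 0.37 ± 0.09 (adjusted p = 0.00407), and at 2 and 4 months it was 0.11 ± 0.09 and 0.03 ± 0.10.

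The signalling genes differed from each other. Tnfrsf12a encodes Fn14, the receptor for the cytokine TWEAK. Its signals at 8 months were 8.11, 8.24 and 8.67 in controls and 8.93, 9.50 and 10.19 in diabetic kidneys. The groups did not overlap, and Tnfrsf12a was higher by 1.22 ± 0.16, or 2.34-fold (adjusted p = 1.22e-06). It stood at 0.35 ± 0.16 at 2 months (adjusted p = 0.285) and 0.39 ± 0.17 at 4 months (adjusted p = 0.38), where 6 of 7 diabetic arrays lay above every control. Hbegf encodes a membrane-bound ligand of the epidermal growth factor receptor. It had 7.76, 8.08 and 8.27 in 8-month controls and 7.91, 8.49 and 9.52 in diabetic kidneys, with 4 of 6 diabetic arrays above the controls. Hbegf was not called at any age, with differences of 0.15 ± 0.23, 0.25 ± 0.24 and 0.51 ± 0.23 at 2, 4 and 8 months (adjusted p = 0.126 at 8 months).

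**Figure D2:**
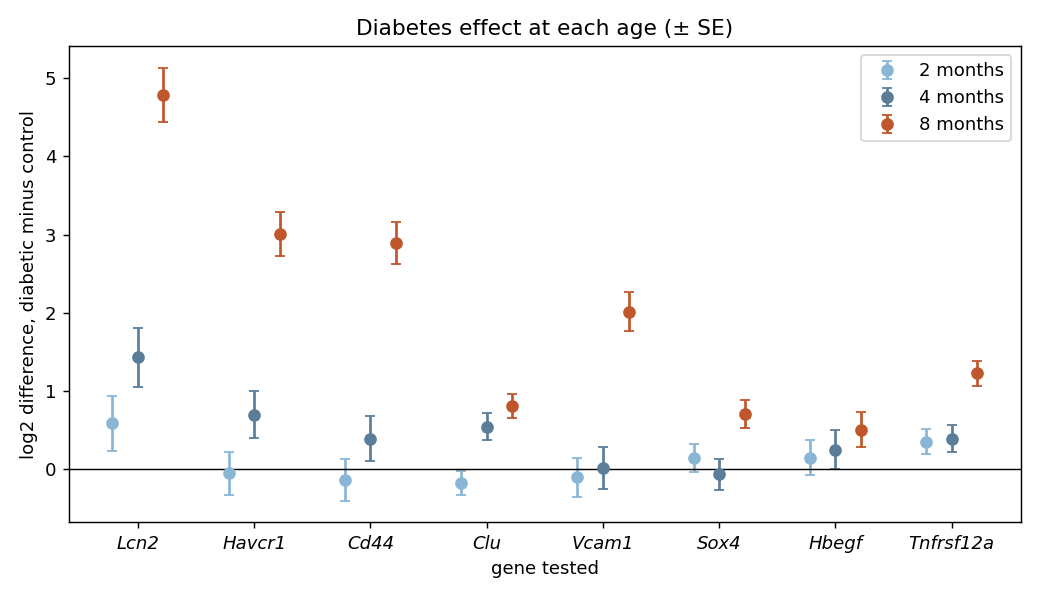
Log2 difference, diabetic minus control (vertical axis), of the 8 tested genes (horizontal axis) at 2, 4 and 8 months, with bars for ± SE of the model. At 8 months the points run from 0.51 for Hbegf to 4.79 for Lcn2, and at 2 months from -0.18 for Clu to 0.58 for Lcn2.

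Across the set, none of the 8 tested genes was called at 2 or 4 months, and 7 were called higher at 8 months. Among all genes tested, 0.754% were called higher at 2 months, 0.415% at 4 months and 9.87% at 8 months. Groups without overlap were seen for 0 of the 8 at 2 months, 2 at 4 months (Lcn2 and Clu) and 6 at 8 months, where 0.538%, 2.37% and 5.41% of all genes had every diabetic array above every control. The median difference over the 8 genes was 0.04, 0.39 and 1.62 at the 3 ages, beside medians of -0.01, 0.01 and 0.00 over all genes. Since the genes were chosen with earlier results of these data known, these counts describe the set and are not independent support.

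Whether the effect of diabetes changed with age was tested as the difference between the 8-month effect and that of a younger age. The mean of an array differed between ages, so a change with age cannot be told apart from a difference in scale or batch. The effect was greater at 8 than at 2 months for Lcn2 (by 4.20 ± 0.49), Havcr1 (3.06 ± 0.39), Cd44 (3.03 ± 0.37), Vcam1 (2.12 ± 0.35), Clu (0.98 ± 0.22) and Tnfrsf12a (0.88 ± 0.23), with adjusted p from 3.62e-06 to 0.0222. In all 13004 genes, 3.01% were called with a higher effect at 8 months in this comparison and 0.877% with a lower one. Lcn2 was tested only because the diabetic arrays were high, so its calls in both comparisons of ages carry no weight of their own. The Tnfrsf12a call was lost with only the 2- and 8-month arrays (adjusted p = 0.059), with array weights per group (adjusted p = 0.0674) and without diabetic array 3 of 8 months (0.75 ± 0.21, adjusted p = 0.0503). Against 4 months, the effect was greater at 8 months for Lcn2 (3.36 ± 0.51), Cd44 (2.50 ± 0.39), Havcr1 (2.31 ± 0.41) and Vcam1 (2.00 ± 0.36), with adjusted p from 0.00111 to 0.0044, where 0.738% of all genes were called in that direction and 0.138% in the other. For Clu the 8-month effect differed from the 4-month effect by 0.26 ± 0.23 (adjusted p = 0.71), and for Sox4 and Hbegf neither comparison of ages passed. The Tnfrsf12a effect at 8 months minus that at 4 months was 0.83 ± 0.24 (adjusted p = 0.0867). It was called without diabetic array 4 of 8 months (0.96 ± 0.22, adjusted p = 0.0146) and with array weights per group (adjusted p = 0.0151).

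The probe sets of a gene were then compared, since each reads a different part of the transcripts. Of the 29 probe sets, 23 were bright enough to be tested among 23003 probe sets, and 19 of these were called higher at 8 months, where 7.83% of all tested probe sets were. That of Lcn2 and the second of Cd44 passed the limit only through the diabetic arrays (control means of 5.06 and 4.93), so the count is a description. All probe sets of Havcr1 (2.53 and 3.01), Clu (0.78 to 0.89), Vcam1 (1.54 to 2.01) and Tnfrsf12a (1.22 and 1.33) were called. Cd44 was read by 4 probe sets. Its 2 tested ones stood at 2.89 and 2.61, a dim one at 1.89 without overlap of the groups, and the dimmest at 0.05. Sox4 had 8 probe sets, 5 of them called, from 0.54 to 0.84. The other 3 stood at -0.15, -0.05 and 0.03, the last of them too dim to test. The 2 Hbegf probe sets (0.51 and 0.47) and the 3 dim ones of Sox9 (0.13 to 0.37) were all above 0.

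**Figure D3:**
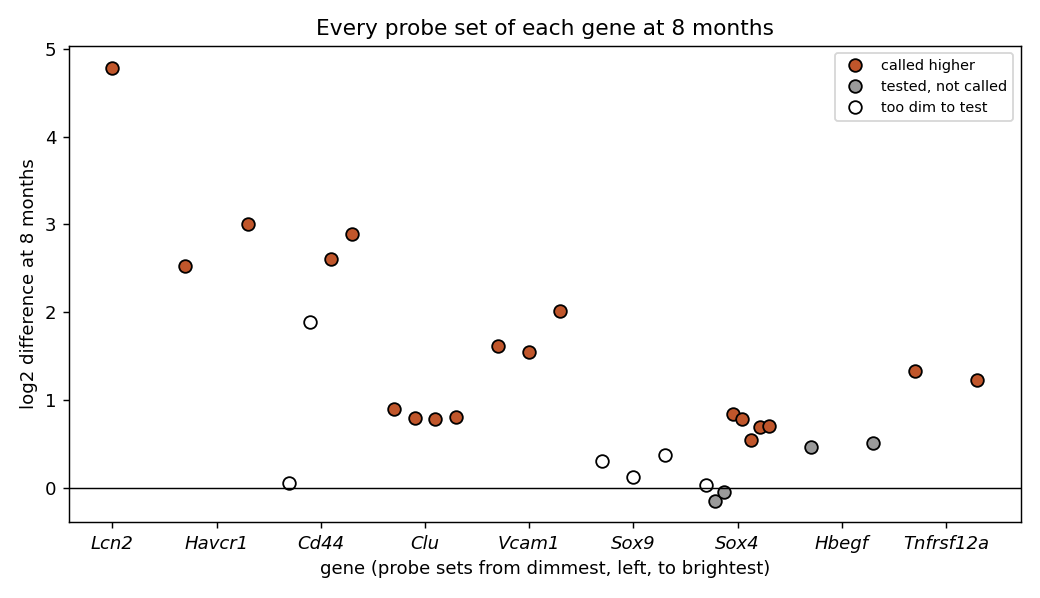
Log2 difference at 8 months, diabetic minus control (vertical axis), of all 29 probe sets, grouped by gene (horizontal axis) and ordered within a gene from dimmest to brightest. Orange points were called higher, grey points were tested and not called, and open points were too dim to test. The points near 0 are a dim probe set of Cd44 at 0.05, 3 of Sox4 from -0.15 to 0.03 and a dim one of Sox9 at 0.13.

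The 6 diabetic kidneys of 8 months differed in the level of these genes, and several arrays kept their place from gene to gene. Diabetic array 3 was the highest of the 6 for all 9 genes, and diabetic array 2 was among the upper 2 for 8 of them. Diabetic array 4 was among the lower 2 for all 9 genes and the lowest for 5. Its Lcn2 signal was 8.07, where array 3 had 11.67. The summed linear signal of 13 macrophage and dendritic cell genes was also greatest on array 3 (24747, against 7617 to 18824 on the other 5 diabetic arrays), and the first principal component of all genes placed array 3 farthest from the controls (39.0, against 3.00 to 17.0). The least macrophage and dendritic cell sum, 7617, was that of array 5, whose Lcn2 signal was 10.71. Apart from the correlation with Lcn2 given below, the part of macrophage content in this order was not tested.

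**Figure D4:**
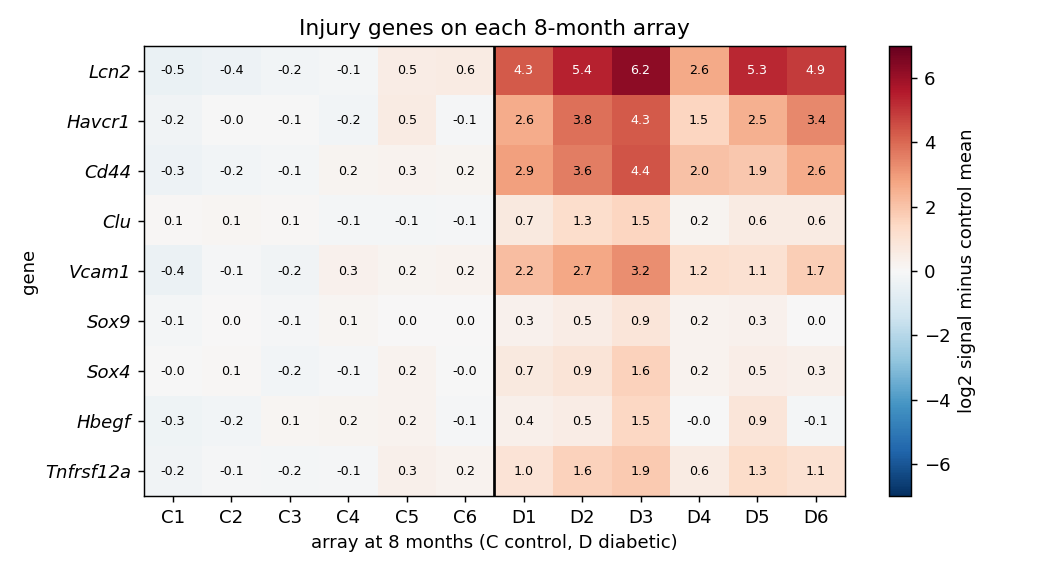
Log2 signal minus the mean of the 8-month controls (colour, with the value in each cell) for the 9 genes (rows) on the 6 control arrays (C1 to C6) and the 6 diabetic arrays (D1 to D6) of 8 months (columns). D3 has the highest value in every row, and D4 is among the 2 lowest of the diabetic arrays in every row.

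Lcn2 was set against the 8 other genes and 3 lists of marker genes over these 6 arrays, in 11 relations with exact two-sided permutation tests. The order of the arrays by Tnfrsf12a was the same as by Lcn2 (Spearman's rho = 1, exact p = 0.00278, adjusted p = 0.0306; Pearson's r = 0.944, exact p = 0.00417, adjusted p = 0.0458). Without arrays 3 and 4, the ones farthest from the Lcn2 median, r was 0.891. For Havcr1 r was 0.891 and rho 0.83 (exact p = 0.0125 and 0.0583, adjusted p = 0.0662 and 0.107), and r was 0.448 without those arrays, so that relation rested on them. For Clu r was 0.840 and rho 0.83 (exact p = 0.0264 and 0.0583, adjusted p = 0.0726 and 0.107), with r = 0.477 without them. The mean of 8 thick ascending limb and distal tubule genes ran the other way, with r = -0.820 and rho = -0.943 (exact p = 0.0181 and 0.0167, adjusted p = 0.0662 and 0.0917), and r = -0.831 without arrays 3 and 4. The macrophage and dendritic cell mean had r = 0.534 and rho = 0.429 (exact p = 0.276 and 0.419, adjusted p = 0.276 and 0.419), which turned to r = -0.537 without those arrays. Of the 11 relations, 1 had an adjusted p under 0.05 by Pearson's r.

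The upstream sequences of Lcn2 and Tnfrsf12a are shown because these genes ordered the 8-month diabetic kidneys identically, and that of Sox4 because it holds the only upstream match to a motif searched. They are the 250 bases before the transcription start in RefSeq (GRCm38.p6, 5′ to 3′ on the strand of the gene), at chr2:32387740-32387989, minus strand, for Lcn2, at chr17:23677450-23677699, minus strand, for Tnfrsf12a and at chr13:28953700-28953949, minus strand, for Sox4, with the motif match in capitals.
Lcn2: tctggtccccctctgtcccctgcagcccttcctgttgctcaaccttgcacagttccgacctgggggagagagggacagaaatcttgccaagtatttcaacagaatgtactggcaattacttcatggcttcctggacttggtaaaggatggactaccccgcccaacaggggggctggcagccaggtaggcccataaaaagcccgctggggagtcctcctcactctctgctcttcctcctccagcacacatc
Tnfrsf12a: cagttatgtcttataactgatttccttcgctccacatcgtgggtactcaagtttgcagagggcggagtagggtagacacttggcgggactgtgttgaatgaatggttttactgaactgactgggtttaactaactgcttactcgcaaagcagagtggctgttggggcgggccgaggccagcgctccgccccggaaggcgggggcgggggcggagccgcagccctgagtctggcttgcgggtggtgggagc
Sox4: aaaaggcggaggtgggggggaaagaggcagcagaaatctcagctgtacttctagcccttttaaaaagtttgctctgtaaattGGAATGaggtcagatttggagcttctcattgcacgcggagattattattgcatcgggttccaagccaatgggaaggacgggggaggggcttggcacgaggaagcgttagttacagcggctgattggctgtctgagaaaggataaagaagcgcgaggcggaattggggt

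RefSeq windows of 300 bases, 250 before to 50 after a start, were given for 5 of the 9 genes (Lcn2, Havcr1, Cd44, Sox4 and Tnfrsf12a), 7 windows in all. Motifs were searched on both strands. The kappa-B letters GGNNTTTCC were in 0 of the 7 windows and 5.82% of 32851 windows of all genes, the STAT letters TTCNNNGAA in 0 and 8.30%, and the E-box CACGTG in 0 and 7.15%. The AP-1 letters TGANTCA were in 1 window, that of a downstream start of Havcr1 (7.81% of all windows), and the TEAD letters GGAATG in 1, at 168 bases before the Sox4 start (14.7% of all). A match is a stretch of letters and no evidence of binding.

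The genes most alike to each marker were found by Pearson's r over the 35 arrays, as a description without a test. From each value the control mean of its age was subtracted. The difference between diabetic and control kidneys stays in, so r is raised between genes that are both higher in diabetic kidneys. A high r therefore does not show that such genes vary together among the diabetic kidneys. The nearest genes were Havcr1 (0.949) and the macrophage gene Cd68 (0.948) for Lcn2, Cd44 (0.962) and Cd68 (0.952) for Havcr1, and Cd68 (0.976) and Vcam1 (0.968) for Cd44. Over the 6 diabetic arrays of the oldest age alone, Lcn2 had r = 0.891 with Havcr1. With the macrophage and dendritic cell mean, which includes Cd68, it had r = 0.534. Without arrays 3 and 4 of these, the values were 0.448 and -0.537. Over the 35 arrays, Vcam1 was nearest to Cd44 (0.968) and to Tmsb10 (0.945), which encodes an actin-binding thymosin. Clu was nearest to the keratin gene Krt8 (0.906) and the NF-kappaB subunit gene Relb (0.888), and Tnfrsf12a to the kinase gene Nek6 (0.901) and Lcn2 (0.901). Sox4 was nearest to the actin-nucleation subunit gene Arpc5 (0.891) and Cmtm3 (0.884), Sox9 to the endothelin gene Edn1 (0.857) and the cytokine-signal suppressor Socs3 (0.835), and Hbegf to the transcription factor genes Cebpd (0.857) and Cebpb (0.792).

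A further 46 injury genes were listed, of which 39 were tested. At 8 months 28 rose and 1 fell, with a median difference of 0.84 (9.87% of all genes were called higher and 6.95% lower at this age). Cxcl10, a chemokine that draws T cells, rose by 2.21 ± 0.20, from signals of 5.71, 6.00 and 6.44 in controls to 7.21, 8.32 and 8.98 in diabetic kidneys. Cdkn1a, the cell cycle inhibitor p21, rose by 2.32 ± 0.25 (6.72, 6.80 and 7.05 against 8.36, 9.14 and 10.19). The keratin gene Krt19 rose by 1.99 ± 0.21, the monocyte chemokine gene Ccl2 by 1.84 ± 0.20 and the annexin gene Anxa3 by 1.31 ± 0.13. Ccl2 is 1 of the 28 but had a control mean of 5.08, under the testing limit, and was tested only because the diabetic arrays were high. In each of these 5 genes the 8-month groups did not overlap, where 5.41% of all genes had every diabetic array above every control. The 1 that fell was Igfbp7 (-0.18 ± 0.05), a marker of cell cycle arrest in urine, which was named after its value was seen.

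Fewer genes of the list were called in younger mice. At 4 months 2 of 39 rose, Cxcl10 (1.35 ± 0.21) and the keratin gene Krt18 (0.60 ± 0.14), and 0 fell, with a median of 0.18. Of all genes 0.415% were called higher and 0.554% lower. The fit of that age alone called 7 higher and 0 lower, and array weights per group 9 and 1. Cdkn1a stood at 0.78 ± 0.27 (adjusted p = 0.199), and it was called with that age fitted alone (0.0229) and with array weights per group (0.0137). Both calls were lost without control arrays 3 and 4 (adjusted p = 0.119 for Cxcl10, 0.558 for Krt18), and that of Krt18 without control array 3 or 4 or diabetic array 5 singly (adjusted p = 0.124, 0.0858 and 0.0534) and with the covariate of the clock genes Arntl and Dbp (adjusted p = 0.0746). At 2 months Cdkn1a rose by 1.27 ± 0.25 and Prom1, the gene for prominin-1, fell by 0.41 ± 0.11, with a median of 0.01 over the list (0.754% of all genes were called higher and 1.78% lower). The count that rose was 2 without diabetic array 2 or control array 5. Fitting the 2-month arrays alone took both calls away (adjusted p = 0.0673 and 0.172). The dimmer probe set of Cdkn1a stood at 0.38 at 2 months and was not called. Prom1 also missed the threshold with quantile normalization over all arrays (adjusted p = 0.0538), with array weights per group (0.276), without arrays 5 and 6 (0.233) and without diabetic array 4, 5 or 6 or control array 2 or 6 singly (adjusted p = 0.0537 to 0.0832).

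Ligands, receptors, sheddases and sister genes of the markers formed a list of 46 partners, 33 of them tested. Slc22a17, which encodes a receptor of lipocalin 2, fell at all 3 ages while Lcn2 rose at 8 months. Its signals were 9.59, 9.68 and 9.85 in controls against 9.30, 9.36 and 9.49 in diabetic kidneys at 2 months (-0.31 ± 0.08, adjusted p = 0.0207). They were 8.75 to 9.08 against 8.36 to 8.62 at 4 months (-0.35 ± 0.08, adjusted p = 0.0287), and 8.04, 8.12 and 8.32 against 7.32, 7.48 and 7.89 at 8 months (-0.61 ± 0.08). No diabetic array overlapped the controls at any age. Among all genes, 0.961%, 2.44% and 4.28% had every diabetic array below every control at 2, 4 and 8 months. The 2-month call was lost in a fit of that age alone (adjusted p = 0.0755), with array weights per group (0.245), without arrays 5 and 6 (0.0501) and without control array 2 (0.0652) or 3 (0.0505). The 4-month call was lost with quantile normalization over all arrays or within an age (0.0794 and 0.0703), without control arrays 3 and 4 (0.955), and without control array 3 (0.248) or 4 (0.116) or diabetic array 3 (0.0598), 5 (0.062) or 6 (0.0659) singly.

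At 8 months 9 partners rose and 4 fell, with a median of 0.09 (9.87% of all genes were called higher and 6.95% lower). Egf, the growth factor of the distal tubule that shares its receptor with Hbegf, fell by 0.89 ± 0.10, from 13.37, 13.46 and 13.51 in controls to 11.98, 12.59 and 13.11. The groups of Egf did not overlap at 8 months, nor at 2 months (-0.26 ± 0.10) or 4 months (-0.36 ± 0.11), where it was not called (adjusted p = 0.168 and 0.101). Every diabetic array lay below every control for 0.961%, 2.44% and 4.28% of all genes at 2, 4 and 8 months. With the 4-month arrays fitted alone, or with array weights per group, Egf was called at 4 months (adjusted p = 0.00563 and 0.00367). Lrp2, the gene for megalin, which takes up filtered proteins such as lipocalin, fell by 0.50 ± 0.13. A second bright Lrp2 probe set stood at -0.51, and a dim one at -0.41 was not called. At 4 months both bright ones stood at -0.42 without overlap of the groups, and the dim one at 0.01. The second was called among probe sets at 4 months (adjusted p = 0.0452). In the main fit over genes Lrp2 was not called at that age, but it was in 2 of 10 alternatives. These were that age fitted alone (adjusted p = 0.0209) and array weights per group (0.00655). Relb, a subunit of non-canonical NF-kappaB downstream of Fn14, rose by 0.98 ± 0.15, and the integrin gene Itga5 by 0.47 ± 0.11, though Itga5 averaged over its 4 probe sets stood at 0.14 (adjusted p = 0.0953). The count that rose was 3 without diabetic array 3, and 5, 4 and 5 without control arrays 1, 2 and 4. At 4 months 1 partner rose, the immediate early gene Nr4a1 (1.41 ± 0.32), and 1 fell. Of all genes 0.415% were called higher and 0.554% lower at that age. The fit of that age alone called 2 partners higher and 3 lower, and array weights per group 4 and 4. Without control arrays 3 and 4 the Nr4a1 adjusted p was 0.592, and without control 3 or 4 singly 0.133 and 0.0689. At 2 months 0 rose and 2 fell, Slc22a17 and Lrp8 (-0.91 ± 0.21), a receptor for clusterin and reelin. Of all genes 0.754% were called higher and 1.78% lower at 2 months. Lrp8 missed the threshold in the fit of that age alone (adjusted p = 0.133) and with array weights per group (0.183). The other 2 probe sets of Lrp8, both too dim to test, stood at -0.12 and -0.06, and the mean of its 3 probe sets at -0.36 ± 0.09 (adjusted p = 0.031).

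Markers of other cells moved at 8 months as well, and their part in the results above was not tested. Of all genes 9.87% were called higher and 6.95% lower at 8 months, and 0.415% and 0.554% at 4 months. Of 13 macrophage and dendritic cell genes 12 rose and 0 fell, and their summed signal ran from 7617 to 24747 in diabetic and 5756 to 7626 in control kidneys, an overlap by 1 diabetic array. At 4 months that sum ran from 3760 to 5795 against 4190 to 5447, and at 2 months from 4231 to 4778 against 4645 to 5608. Of 8 neutrophil genes on the array, S100a8, S100a9, Camp, Mpo and Cxcr2 lay under the testing limit and 0 of the 3 tested were called at 8 months, with sums of 374 to 517 in diabetic and 373 to 626 in control kidneys. Of 8 tested lymphocyte genes 6 rose and 0 fell, among them Cd79a, which passed the limit only through the diabetic arrays. Cd2, Cd3g, Cd79b and Ms4a1 were under the limit. The sum over 12 genes ran from 2755 to 13640 against 1898 to 3612. Jchain and Ighm, the brightest of them, weigh most in it (means of 11.88 and 10.68 in diabetic kidneys). Cd3e and Cd3d rose by 0.36 and 0.38, and Cd4 and Cd8a were not called. The 9 endothelial genes had 0 calls, with sums of 5679 to 6692 against 5869 to 6588. They mark the cell type and not its activation, and an endothelial part in Vcam1 was not tested. Of 15 proximal tubule genes 9 fell and 0 rose (81999 to 119505 against 128307 to 133120), and of 8 thick ascending limb and distal tubule genes 6 fell and 0 rose (36440 to 47925 against 56580 to 58344). At 4 months the latter sum lay apart, at 43170 to 49132 against 51250 to 54416, though 0 of the 8 genes were called. At 2 months it overlapped, at 47493 to 55626 against 55133 to 59547, with 0 of the 8 genes called higher and 1 lower. Of all genes 0.754% were called higher and 1.78% lower at that age. The collecting duct sum ran from 7033 to 8014 in diabetic and 5354 to 7020 in control kidneys at 4 months, with 0 genes called higher and 1 lower, and from 7134 to 9066 against 6264 to 7699 at 8 months, with 2 higher and 2 lower. The sum of 6 urothelial genes did not overlap at 4 months (748 to 921 against 667 to 746, with 0 calls) or 8 months (1021 to 1207 against 818 to 994, with 2 higher). Of 8 fibroblast and pericyte genes 6 rose, with sums of 4792 to 17810 against 2606 to 4795. Of 3 tested adipocyte genes 0 rose and 1 fell at 8 months, Ucp1 (-2.20 ± 0.46), which also fell at 4 months (-2.28 ± 0.50). Adipoq was not called, and its signal on the 8-month control arrays spanned 4.27 to 9.75. Of 4 podocyte genes 0 rose and 1 fell at 8 months. The beta-actin 3′ minus 5′ signal, a measure of RNA integrity, was 0.78 to 0.95 on diabetic and 0.93 to 1.05 on control arrays of 8 months. At 2 months it was 2.56 on control array 6, which is among the arrays that stood apart, and 0.81 to 1.35 on the other 11. The same measure for Gapdh was 0.99 on that array and -0.16 to 0.15 on the others.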

How the data were processed

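Per the labels' protocols, total RNA was extracted with Trizol from whole kidneys and biotinylated cRNA was hybridised to Affymetrix arrays. The deposited values are log2 probe set summaries, as their range shows, and how they were summarized and normalized is not given in the sources used here. Of 45101 probe sets, 34945 name 1 gene, 932 several and 9160 none, and 64 are controls. Group means were fitted with limma 3.58.1 in R 4.3.3 (29 residual degrees of freedom). Array correlations used scipy 1.17.1 and figures matplotlib 3.10.9. The number of arrays limits the precision. The fit was run on simulated normal values with a single spread per gene in all groups and independent arrays. That setting lacks the unequal spreads of the groups, so it checks the code and not the calls.

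The genes named are the 9 markers, up to 5 called genes with the smallest p per list and age, and the 2 most alike to each marker. Members, lists and the rule were chosen with earlier results of these data known. Same-numbered arrays deviated together at 2 months (r from 0.246 to 0.444 in 6 of 6 pairs). They did not in every pair at 4 months (0.0484 to 0.177) or 8 months (-0.142 to 0.233). The main fit did not pair them at any age, and the replicate block was an alternative. The part of arrays 5 and 6, which stood apart at 2 months, in the r of that age was not tested. Alternatives were the arrays fitted, the normalization, the filter, the probe set, the array weights per group, the spread, the replicate block, the clock covariate and arrays left out.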

Additional observations from a re-analysis of the deposited data

Results flagged for a closer look

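Single arrays stood far from the rest of their group in 3 of 54 sets of a gene and a group, and chance alone flags about 5% of such sets. Control array 1 of 4 months had a Clu signal of 11.59, with the next at 11.44. Control array 5 of 8 months had a Havcr1 signal of 7.28, with the next at 6.73. Diabetic array 6 of 4 months had an Lcn2 signal of 5.77, below the next at 6.39 and still above the controls.

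The effect of diabetes differed between ages in 10 comparisons by a test of the difference in limma, where age cannot be told apart from scale or batch. Between 8 and 2 months these were Lcn2 (4.20), Havcr1 (3.06), Cd44 (3.03), Vcam1 (2.12), Clu (0.98) and Tnfrsf12a (0.88). Between 8 and 4 months they were Lcn2 (3.36), Havcr1 (2.31), Cd44 (2.50) and Vcam1 (2.00). Lcn2 was tested only because the diabetic arrays were high.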

How the results depend on the processing

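The markers called at 8 months were 7 in number under each alternative and without any 1 array, except that Sox9 made them 8 with no limit on dim genes. For the 7, the highest adjusted p over 9 alternatives ran from 0.00015 for Lcn2 to 0.0237 for Sox4. At 4 months 0 were called, but 2 with only that age fitted, 2 with array weights per group, and 0 to 1 without a single array. With 1 replicate left out, 5 to 6 markers were called for the change between 8 and 2 months and 4 to 5 for that between 8 and 4 months. With the replicate block, 1 marker (Lcn2) kept its call for the change between 8 and 4 months, where same-numbered arrays are no shown pairs, and the adjusted p of Cd44, Havcr1 and Vcam1 was 0.0544, 0.0572 and 0.0731. Lcn2 was tested only because the diabetic arrays were high, so the call it kept carries no weight of its own. The block changed no other marker's call, but took those of Krt18, Nr4a1 and Slc22a17 at 4 months (adjusted p = 0.143, 0.151 and 0.215). Over all genes, the 330 called at 2 months became 64 with that age alone, 45 with array weights per group, 553 with the replicate block and 696 with a term for arrays 5 and 6, and 341 without arrays 5 and 6, an alternative chosen after seeing the data. The 126 at 4 months became 358 with that age alone, 774 with array weights per group and 5 without control arrays 3 and 4. The 506 for 8 against 2 months became 277 with these ages alone and 222 with array weights per group, and the 114 for 8 against 4 months became 494 with array weights per group and 19 with the block. Without 1 array the counts ran from 192 to 515 at 2 months, 29 to 135 at 4 months, 1633 to 2329 at 8 months, 329 to 759 for 8 against 2 months and 64 to 260 for 8 against 4 months. The causes were not tested. No sign of a call turned.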
